A study of Mus musculus with 8 samples.

Results

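The 10 genes described here encode proteins that bind or erase N6-methyladenosine (m6A) on RNA. They were chosen by name: the 5 YTH readers Ythdc1, Ythdc2, Ythdf1, Ythdf2 and Ythdf3, the 2 erasers Fto and Alkbh5, and 3 further RNA-binding proteins that have been described as m6A readers, Hnrnpa2b1, Hnrnpc and Igf2bp1. All 10 were found among the 37769 genes of a table of 38971 entries, and all 10 passed the filter on low values, with 350 to 250521 reads per gene and library. The cells were male mouse embryonic stem cells from 129 mice, grown in serum and LIF without feeder cells and carrying conditional knockout alleles of Ythdc1 in every group, controls included. Cells received 4-hydroxytamoxifen (4OHT) at 1 μg/ml, the drug used to start recombination in inducible knockout lines, or the solvent DMSO during 4 days. They were next treated for 3 h with 100 μM DRB, which keeps RNA polymerase II from leaving promoters, and the drug was removed by washing. The recovering cells were labelled with 1 mM 4-thiouridine (4sU) during 0 or 8 min, and labelled RNA was purified through biotin and sequenced. The 4 groups were therefore DMSO and 4OHT at 0 min and DMSO and 4OHT at 8 min, with 2 libraries each. The series addressed how the transcriptome changes after Ythdc1 knockout, and the comparison here is of 4OHT with DMSO at each labelling time.

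m6A is placed on nascent RNA by a methyltransferase complex, removed by the demethylases FTO and ALKBH5, and bound by reader proteins. YTH-domain proteins hold the modified base in a pocket of aromatic residues. YTHDC1 acts in the nucleus, in splicing, export and chromatin-bound RNA, and in embryonic stem cells it is known for restraining retrotransposons and the 2-cell-like state, whereas the YTHDF proteins act mainly in the cytoplasm, in decay and translation.

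The promoter sequences of 3 genes are shown because the deleted gene and Hnrnpa2b1 had the same change at 8 min, while Ythdf2 is a family member that did not pass the test. Each runs 5′ to 3′ over 300 bases, from 250 before to 50 after a RefSeq start on GRCm38.p6 (mm10), and capitals mark the GC box GGGCGG or its reverse complement CCGCCC. They lie at chr5:86804016-86804315 on the plus strand (Ythdc1), chr4:132212207-132212506 on the minus strand (Ythdf2) and chr6:51469845-51470144 on the minus strand (Hnrnpa2b1). The starts used for Ythdc1 and Hnrnpa2b1 lie inside the annotated genes, downstream of their outermost starts. The same holds for the starts of Fto and Hnrnpc, whose windows are counted below but not shown.
Ythdc1: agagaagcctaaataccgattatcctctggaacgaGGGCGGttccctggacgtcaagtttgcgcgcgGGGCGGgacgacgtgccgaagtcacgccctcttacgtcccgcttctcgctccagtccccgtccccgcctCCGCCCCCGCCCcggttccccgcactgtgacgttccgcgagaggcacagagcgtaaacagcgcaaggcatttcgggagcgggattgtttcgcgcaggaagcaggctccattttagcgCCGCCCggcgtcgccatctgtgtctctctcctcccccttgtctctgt
Ythdf2: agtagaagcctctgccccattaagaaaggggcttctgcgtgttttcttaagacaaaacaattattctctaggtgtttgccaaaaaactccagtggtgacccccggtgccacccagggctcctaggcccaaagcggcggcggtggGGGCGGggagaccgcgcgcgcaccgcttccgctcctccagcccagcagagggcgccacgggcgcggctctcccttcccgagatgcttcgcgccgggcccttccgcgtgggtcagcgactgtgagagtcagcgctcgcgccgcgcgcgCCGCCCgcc
Hnrnpa2b1: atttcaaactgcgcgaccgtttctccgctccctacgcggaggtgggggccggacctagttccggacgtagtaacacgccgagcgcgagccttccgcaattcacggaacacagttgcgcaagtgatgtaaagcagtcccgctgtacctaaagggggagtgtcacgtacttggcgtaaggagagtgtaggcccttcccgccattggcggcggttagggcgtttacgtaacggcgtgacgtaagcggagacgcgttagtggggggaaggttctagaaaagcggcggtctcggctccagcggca
The Ythdc1 window held 5 GC boxes and 35 CG dinucleotides, and the Ythdf2 window held 2 GC boxes and 32 CG dinucleotides. That of Hnrnpa2b1 held 0 GC boxes, 34 CG dinucleotides and 1 CCAAT motif. Of the other members with a promoter read, Ythdf1 held 3 GC boxes, Alkbh5 2, Fto 0 and Hnrnpc 0. No TATAA was found in any of these 7 windows. Read on both strands, GGGCGG occurred in 35.9% of 27025 RefSeq promoter windows of that length and in 58.9% of the 12305 that belong to genes tested here, CCAAT in 37.9% and 38.7%, and TATAA in 25.5% and 14.8%. The median window held 7 CG dinucleotides, and 19 among genes tested. These matches describe letters in the window and no binding. No promoter is shown for Ythdc2, Ythdf3 and Igf2bp1.

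Libraries held 46340613 to 61409073 reads at 0 min and 93062961 to 133915996 at 8 min. Nothing in the labels says that the 2 libraries of a group came from separate cultures. A p-value here thus reflects at most how far these samples differ, which may be technical spread. On the deposited scale, the main limma fit took each gene's spread wholly from the trend over all genes (82572 degrees of freedom). Genes of a library share its shifts, so small p-values on that scale do not stand for independent replicates. Sample titles give cell line 1 at 0 min and cell line 2 at 8 min, whereas the names in the table carry numbers 1 and 2 at both times, so line and time cannot be told apart, and "number 1" and "number 2" below are the table's numbers only. All 10 embryonic stem cell markers (among them Pou5f1, Sox2 and Nanog) were read at 10 or more on average in every group, while fibroblast markers summed to 27.2 to 83.3 normalised read counts over 8 genes against 3434 to 12469 for the stem cell markers. Markers of 2-cell-like cells moved with 4OHT: over 10 genes they summed to 15.5 and 27.9 with DMSO and to 518 and 741 with 4OHT at 8 min. At 0 min the 4OHT library of number 2 stood apart, with a sum of 141 against 11.2 to 17.4 in the other 3 libraries. Other markers moved at 8 min as well, relative to other genes: of the 10 stem cell markers Nanog (−1.01), Tdgf1 (−0.66) and Dppa5a (−0.48) fell and Dppa4 (0.64) and Sox2 (0.43) rose. Of the 3 fibroblast markers that passed the filter, Col1a1 (−1.04) and Pdgfrb (−1.05) fell. These 3 together summed to 48.6 and 65.3 with DMSO against 22.9 and 31.5 with 4OHT after rescaling. Of 4 primitive endoderm markers that passed the filter, Dab2 rose (0.70). Of 3 trophoblast markers that passed, Krt7 rose (1.35) and Krt8 fell (−0.99). Counts were low here, with 5.80 and 7.45 for Krt7 with DMSO after rescaling. The part of these markers in the members' changes was not tested. In bulk RNA, fewer cells of a type and less RNA per cell cannot be told apart.

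Levels differed widely among the members. Per kb of whole gene length, the normalised read count with DMSO at 8 min was highest for Hnrnpa2b1, a splicing and miRNA-processing factor, at 1271 ± 578 (SD, n = 2). Hnrnpc, which packages nascent transcripts, followed at 91.8 ± 43.3, and Ythdc1 at 63.0 ± 28.1. Hnrnpa2b1 was separate from the rest in both libraries, whereas the ranges of Hnrnpc and Ythdc1, and of Ythdc1 and Ythdf1, overlapped. Within each library, though, Hnrnpc was above Ythdc1 and Ythdc1 above Ythdf1 (Ythdc1 43.1 and 82.9, Ythdf1 27.6 and 48.8). Ythdf1 (38.2 ± 15.0), Alkbh5 (38.0 ± 13.9), Ythdf2 (30.5 ± 12.8) and Ythdf3 (27.1 ± 12.5) formed a run of overlapping neighbours. Of the neighbours in this run, only Ythdf1 and Alkbh5 changed order between the libraries. Igf2bp1, an RNA-stabilising reader typical of embryonic cells, was lower at 11.0 ± 3.31. The helicase-containing reader Ythdc2 (1.03 ± 0.240) and the demethylase gene Fto (0.987 ± 0.252) were the lowest and overlapped, with Ythdc2 above Fto in both libraries. The same 3 genes were at the top and the same 2 at the bottom with 4OHT at 8 min. At 0 min Ythdc1 was only sixth of 10 in both groups, at 4.87 ± 1.12 with DMSO. There its range overlapped those of Ythdf2, which was above it in both libraries, and Alkbh5, whose order with it differed. Whole gene length counts introns that RNA polymerase may not have reached within 8 min, so long genes such as Fto (355 kb) are set low on this scale.

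**Figure D1:**
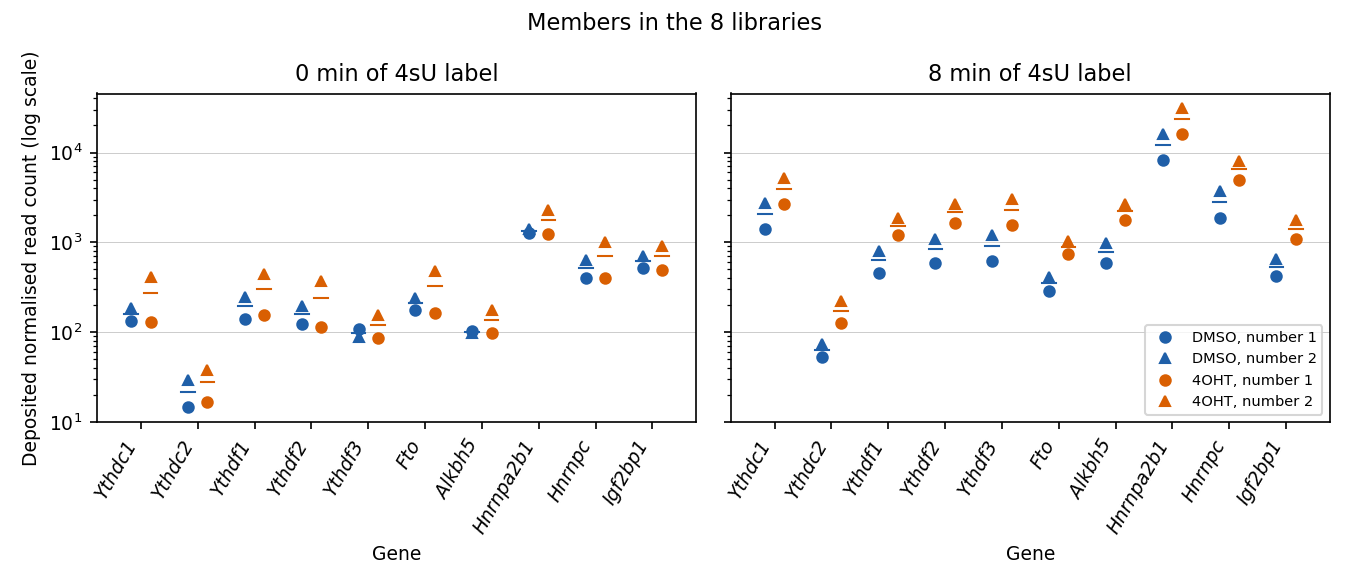
Deposited normalised read count (log axis) of each member in the 4 libraries of 0 min (left) and of 8 min (right). Circles and triangles are the libraries numbered 1 and 2, blue is DMSO, orange is 4OHT, and bars are means of 2 libraries. At 8 min both 4OHT libraries lay above both DMSO libraries for 8 of the 10 genes, and Ythdc1 and Hnrnpa2b1 overlapped.

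Every library held reads of Ythdc1, the targeted gene (gene ID 231386, chromosome 5, 86803980 to 86836659). The 0 min DMSO libraries gave normalised read counts of 133 and 185, the 0 min 4OHT libraries 129 and 412. After 8 min of label the DMSO libraries gave 1409 and 2708 and the 4OHT libraries 2696 and 5168. As groups, the 4OHT libraries were thus not below the DMSO libraries at either time on the deposited scale, and the ranges overlapped. At 0 min the 4OHT library at 129 was below both DMSO libraries, and the one at 412 was above both. Which exons the conditional alleles lose was not given in the sources used here, and a count over the whole gene also takes reads from outside a deleted part. Its level therefore does not check the labels.

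On the deposited scale, values with 4OHT at 8 min were higher for most genes of the table, and most members followed. The added spike-in RNAs were also higher on this scale, with sums of 1028 and 4194 in the DMSO libraries and of 4323 and 6391 in the 4OHT libraries of 8 min. As the divisor of each library is of unstated meaning, the shift cannot be read as an amount of RNA per cell. Of the 10 members, 6 rose by limma at an adjusted p under 0.05 (Alkbh5, Ythdc2, Ythdf2, Fto, Igf2bp1 and Ythdf3). Of all 20643 genes tested, 58.8% were called higher and 0.131% lower. The members' share was close to that of all genes in this fit. With only the 4 libraries of 8 min, 2 members passed, where 59.6% of all genes were called higher. With robust moderation in limma 3 passed, where 59.0% of all genes did. The median log2 fold change was 1.33 over the members and 1.43 over all genes. Alkbh5, an m6A demethylase, had the largest change of the members, from 586 and 995 with DMSO to 1763 and 2704 with 4OHT, a log2 fold change of 1.51 ± 0.61 (SE; limma adjusted p = 0.030). The other 5 called genes had 1.33 to 1.404, with limma adjusted p from 0.037 to 0.0497. The 4 members that did not pass were Ythdf1 (1.29, limma adjusted p = 0.058), Hnrnpc (1.25, 0.097), Hnrnpa2b1 (0.94, 0.285) and Ythdc1 (0.93, 0.170). Fewer members passed when any 1 DMSO library, or the 4OHT 8 min library of number 2, was left out. The share of all genes called higher fell in each of these fits too. It fell far more without the 4OHT 8 min library of number 2 or the DMSO 8 min library of number 1 than in the others. Such fits have 1 library in a group. With the table's numbers as a replicate block, 9 members passed, Ythdc1 among them (limma adjusted p = 0.015) and Hnrnpa2b1 not (0.052), where 82.7% of all genes were called higher.

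Relative to other genes, Ythdc1 and Hnrnpa2b1 fell at 8 min and no other member passed the test. For this comparison the 4 libraries of 8 min were rescaled so that the median gene did not differ, and counts on that scale are called rescaled counts. limma called 2 of 10 members lower and 0 higher, where 16.7% of all genes were called lower and 18.6% higher, so the share of members called lower was near the background. No member was higher at an unadjusted p under 0.05 either, and edgeR and DESeq2 on the recovered reads also called 2 lower and 0 higher. Members had a median log2 fold change of −0.14 against −0.00094 over all genes. Both 4OHT libraries were below both DMSO libraries for 5 of the 10 members, which 33.7% of all genes also were.

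The rescaled count of Ythdc1 was 2939 and 3593 with DMSO and 2041 and 2466 with 4OHT, so the groups did not overlap. Its log2 fold change was −0.53 ± 0.13 (SE, n = 2 per group; 95% interval −0.80 to −0.27; limma adjusted p = 0.0026), or 69.0% of the DMSO level. Of all genes, 14.6% had a lower value. Within libraries of the same number the ratio of 4OHT to DMSO was 0.694 and 0.686. The call did not hold without the 4OHT library of number 1 (−0.40, limma adjusted p = 0.171) or with the spread estimated from all 8 libraries scaled together (−0.61, limma adjusted p = 0.465). It was also lost without the trend in limma (adjusted p = 0.088). The 6 markers of 2-cell-like cells that passed the filter, all Zscan4 genes, summed to rescaled counts of 31.6 and 37.1 in the DMSO libraries. In the 4OHT libraries they summed to 339 and 366. All 10 listed markers were under 10 in every DMSO library on the deposited scale. These 6 thus passed the filter only through 4OHT libraries, so their being higher was set by the filter. Zfp352, Tcstv1, Tcstv3 and Usp17lc did not pass it. The part of these markers in the members' changes was not tested.

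Among the other YTH readers none passed. Ythdf1, a cytoplasmic reader linked to translation, had rescaled counts of 953 and 1072 with DMSO and 906 and 882 with 4OHT, which did not overlap (log2 fold change −0.18, 95% interval −0.40 to 0.05; limma adjusted p = 0.221). Ythdf2, which brings m6A-marked RNA to the deadenylase complex, had 1222 and 1436 against 1248 and 1274. The 4OHT libraries of Ythdf2 lay between the DMSO libraries (−0.07, interval −0.30 to 0.16). Ythdf3, which works with both other YTHDF proteins, had 1291 and 1613 against 1168 and 1465, also overlapping (−0.14, interval −0.40 to 0.12). Ythdc2, needed in the germ line, had the fewest counts of the 10, with 111 and 98.4 against 95.9 and 106 (−0.05, interval −0.36 to 0.26). None of these intervals reached the estimate of Ythdc1, −0.53, although all 4 overlapped the interval of Ythdc1.

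Neither eraser passed the test. Fto had rescaled counts of 600 and 549 with DMSO and 559 and 492 with 4OHT, which overlapped (log2 fold change −0.13, 95% interval −0.36 to 0.10; limma adjusted p = 0.394). Alkbh5 had 1223 and 1320 against 1335 and 1290 and was the single member with a positive estimate (0.05, interval −0.18 to 0.27; limma adjusted p = 0.779).

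Of the remaining readers, Hnrnpa2b1 changed by as much as Ythdc1. Its rescaled count was 17312 and 21427 with DMSO against 12064 and 14766 with 4OHT, without overlap. The log2 fold change was −0.53 ± 0.19 (SE; 95% interval −0.91 to −0.14; limma adjusted p = 0.030), and 14.8% of all genes had a lower value. This call was lost without the 4OHT library of number 1 (limma adjusted p = 0.592) or number 2 (limma adjusted p = 0.230). With all 8 libraries scaled together it was also lost (limma adjusted p = 0.487), as it was with library medians subtracted (0.214), with no filter (0.165) and without the trend (0.097). Hnrnpc had 3914 and 4977 against 3747 and 3845 (−0.22, interval −0.50 to 0.06; limma adjusted p = 0.221), and its groups did not overlap. Igf2bp1 had 879 and 861 against 820 and 845 (−0.06, interval −0.28 to 0.16; limma adjusted p = 0.681), also without overlap.

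**Figure D2:**
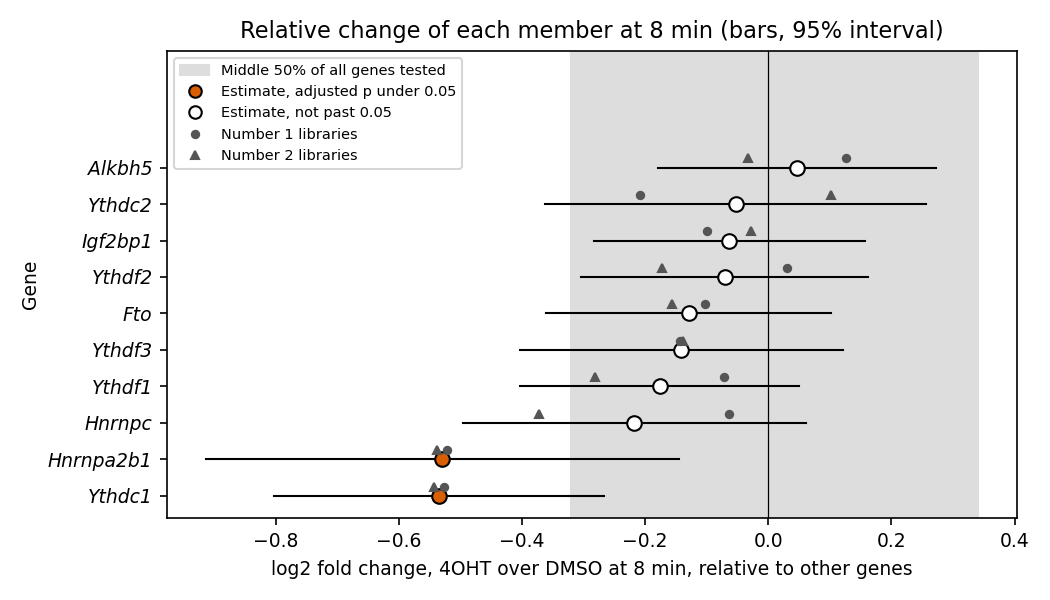
Log2 fold change of each member, 4OHT over DMSO at 8 min, relative to other genes. Large points are limma estimates with 95% intervals (orange, adjusted p under 0.05), small circles and triangles are the changes within libraries of number 1 and of number 2, and the grey band holds the middle 50% of all genes tested. Ythdc1 and Hnrnpa2b1 lie left of the band at −0.53, and the other 8 estimates lie inside it.

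A ratio of 2 genes in the same library does not depend on how libraries are scaled. Ythdc1 was divided by the geometric mean of the 4 other YTH genes in each library, and the log2 ratio at 8 min was 2.19 and 2.35 in the DMSO libraries against 1.77 and 1.93 in the 4OHT libraries. The groups did not overlap, and the mean ratio fell by 0.42 on the log2 scale with 4OHT; no test was made on these 2 libraries per group. Taken against each YTH gene alone, the difference was −0.47 for Ythdc2, −0.36 for Ythdf1, −0.46 for Ythdf2 and −0.39 for Ythdf3, each without overlap. Only 14.6% of all genes had a lower change than Ythdc1, so a fall of its ratio is not particular to the YTH genes. Ratios to genes outside the members were not taken. Against Alkbh5 it was −0.58, against Igf2bp1 −0.47, against Hnrnpc −0.32 and against Fto −0.40, of which the ratio to Fto overlapped between groups. Hnrnpa2b1 was the exception: Ythdc1 was 0.170 and 0.168 of Hnrnpa2b1 with DMSO and 0.169 and 0.167 of it with 4OHT, a log2 difference of −0.0058. Over these libraries the deleted gene and Hnrnpa2b1 thus kept the same ratio to each other to within the spread between replicates. At 0 min the ratio to the 4 YTH genes overlapped between groups, with 0.86 and 0.79 for DMSO and 0.84 and 1.20 for 4OHT. Against single genes at 0 min the log2 ratio was higher with 4OHT without overlap for Ythdf2 (difference 0.15), Fto (0.12) and Igf2bp1 (0.41), on the other side of 0 from 8 min, and overlapped for the other 6.

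**Figure D3:**
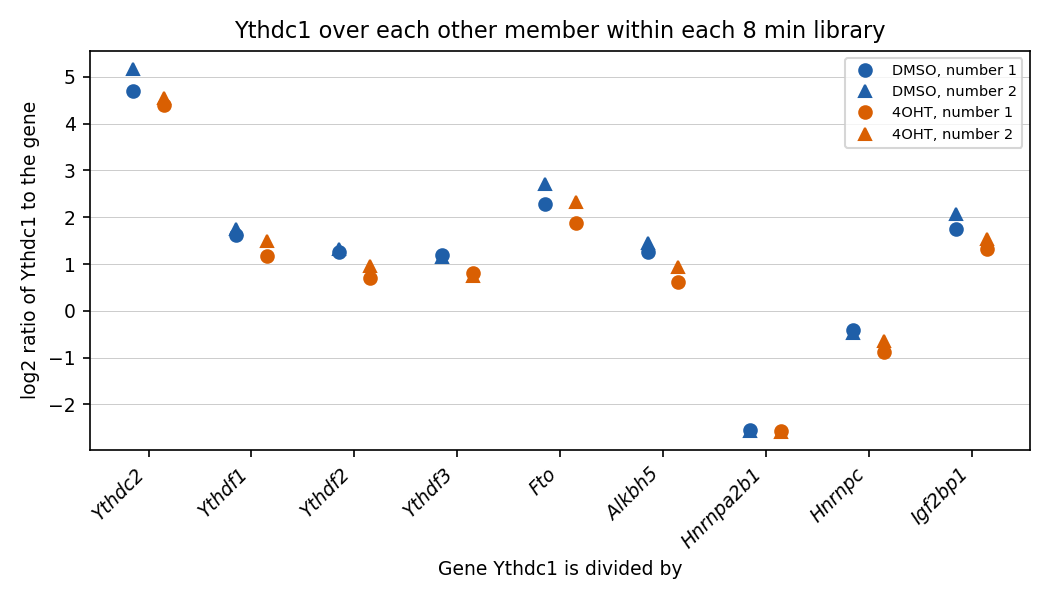
Log2 ratio of Ythdc1 to each other member within each of the 4 libraries of 8 min (blue, DMSO; orange, 4OHT; circles and triangles, numbers 1 and 2). The orange points lie below the blue points for 7 of the 9 genes, overlap for Fto, and coincide for Hnrnpa2b1 near −2.57. Ratios to genes outside the members were not taken.

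At 0 min no member passed the test, in a comparison where no gene tested did. limma called 0 of 10 members in either direction on both scales, where 0.0% of all genes were called, and 0 members had an unadjusted p under 0.05; edgeR and DESeq2 called 0 as well. The standard errors of the members ran from 0.60 to 0.83 on the deposited scale and from 0.35 to 0.52 relative to other genes, so changes of that size were not detectable. The members' log2 fold changes ranged from 0.14 to 0.55 on the deposited scale (median 0.37, all genes 0.28) and from −0.17 to 0.24 relative to other genes. Ythdc1 had the highest of both, with rescaled counts of 160 and 192 against 157 and 273, and the value of 273 came from the 4OHT library that stood apart. Without that library its change was −0.28 on the deposited scale and −0.16 relative to other genes. Igf2bp1 was the 1 member whose 4OHT libraries both lay below the DMSO libraries (627 and 734 against 598 and 607), as 9.1% of all genes did. For the difference of the 4OHT effect between 8 and 0 min, limma called no member (0 of 10, also 0 at an unadjusted p under 0.05; 0.388% of all genes higher), with standard errors of 0.84 to 1.18. With a replicate block Igf2bp1 passed (1.26, limma adjusted p = 0.041), and the share of all genes called in that fit is not given here. edgeR and DESeq2 also called 0 members in that comparison, though 2 were lower at an unadjusted p under 0.05 in DESeq2.

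From 0 to 8 min of labelling, Ythdc1 showed the largest rise of the members with DMSO. Its normalised read count went from 133 and 185 to 1409 and 2708, a log2 fold change of 3.63 ± 0.64 (SE; limma adjusted p = 1.7e-07). limma called 8 of 10 members higher with DMSO (47.0% of all genes) and 9 of 10 with 4OHT (74.0%), and 0 lower (1.95% and 0.824% of all genes). Both 8 min libraries lay above both 0 min libraries for 9 members with DMSO (64.5% of all genes) and for all 10 with 4OHT (83.4%). Ythdf3 (3.14), Hnrnpa2b1 (3.13), Alkbh5 (2.92), Hnrnpc (2.398), Ythdf2 (2.34), Ythdf1 (1.69) and Ythdc2 (1.55) followed with DMSO. Fto (0.73, limma adjusted p = 0.329) and Igf2bp1 (−0.22, limma adjusted p = 0.804) did not pass with DMSO. Igf2bp1 had 524 and 708 at 0 min and 421 and 649 at 8 min, so labelling time left its groups overlapping, and with 4OHT it was at 492 and 916 against 1083 and 1770 (1.04, limma adjusted p = 0.129). With 4OHT the largest rises were those of Ythdf3 (4.21), Alkbh5 (4.04) and Ythdc1 (4.01). A label of 0 min gives no time for labelling, so RNA at 0 min may be carried over, and its share was not measured here. Fewer members passed with DMSO without the DMSO 8 min library of number 2 or the DMSO 0 min library of number 1. Such fits have 1 library in a group. The share of all genes called in them is not given here, so this loss cannot be read as particular to the members. After scaling all libraries to a common median gene, Fto turned to −0.51 with DMSO and −0.85 with 4OHT, and Igf2bp1 turned to −1.44 with 4OHT and stood at −1.46 with DMSO.

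Gene length was set beside these rises, since transcription restarts at the promoter after DRB. Ythdc1 spans 32.7 kb and its rise exceeded that of 94.7% of the 4194 protein-coding genes of 30 to 100 kb, whose median was 1.35. In that length class Ythdf3 (33.9 kb) stood at percentile 89.8, Hnrnpc (30.7 kb) at 77.3, Ythdc2 (62.0 kb) at 55.3 and Igf2bp1 (48.8 kb) at 12.1. Hnrnpa2b1, at 9.62 kb, was at percentile 86.4 of genes under 10 kb. Fto was at percentile 48.1 of genes over 100 kb (median 0.78), close to the middle of its class. Relative to other genes, the median 4OHT change at 8 min was −0.10 for genes under 10 kb and 0.13 for genes of 30 to 100 kb, so the negative change of Ythdc1 lay on the other side of 0 from the median of its class.

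**Figure D4:**
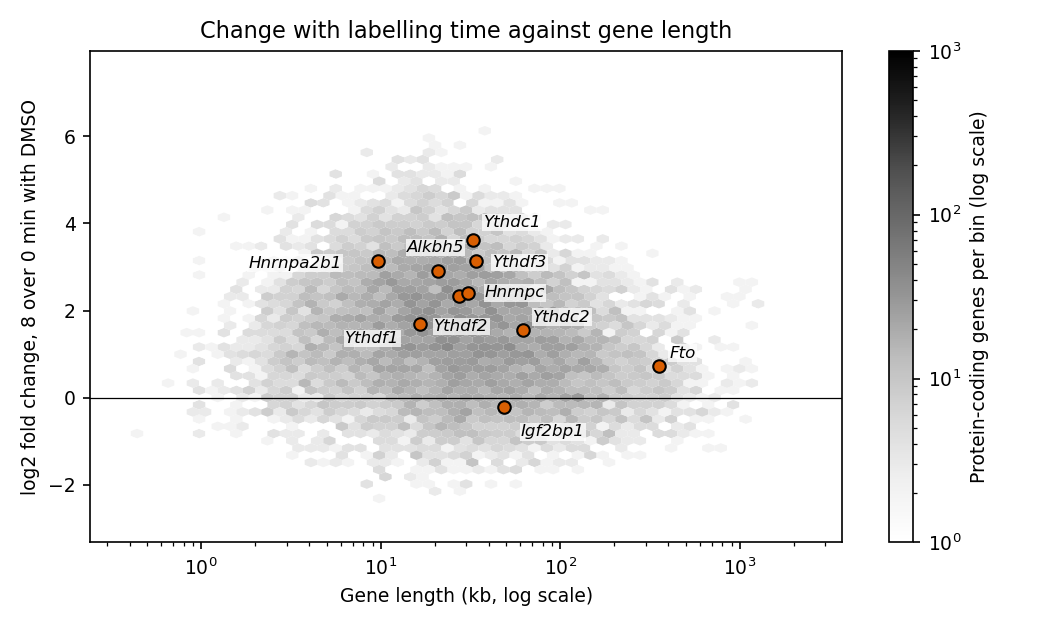
Log2 fold change of 8 over 0 min with DMSO (deposited scale, vertical axis) against gene length in kb (log axis) for 13951 protein-coding genes, with the 10 members in orange and grey for genes per bin. Ythdc1 lies at 3.63, above most genes of its length, Fto lies near the middle of the longest genes, and Igf2bp1 lies at −0.22.

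Genes that act with the members were taken from lists and are described by counts. For each, the background is the 18.6% of genes higher and 16.7% lower at 8 min relative to other genes. Among 18 other hnRNP genes, RNA-binding proteins of the same kind as Hnrnpa2b1 and Hnrnpc, 10 fell and 0 rose, with a median log2 fold change of −0.32 against −0.00094 over all genes; 1 was higher at an unadjusted p under 0.05. Hnrnph2 (−0.64), Hnrnpa3 (−0.65) and Hnrnpk (−0.61) had the smallest p (limma adjusted p = 0.00021, 0.00023 and 0.00061). Fewer of them fell without the 4OHT library of number 1 or the DMSO library of number 2, where fewer of all genes were called lower too. With all 8 libraries scaled together 0 fell, where 0.14% of all genes did. The markers of 2-cell-like cells given above were higher in the same 4OHT libraries, and their part in the change of this list was not tested.

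Among 15 partners of Ythdc1 in splicing, export, cleavage and silencing, 5 fell and 0 rose (median −0.21; 0 higher at an unadjusted p under 0.05). Srsf10, a splicing factor, had rescaled counts of 3374 and 3830 against 2156 and 2651 (−0.59, limma adjusted p = 0.0010). Trim28, a corepressor of retrotransposons, had −0.37 and Srsf1, a splicing factor, −0.41 (limma adjusted p = 0.010 for each). Fewer partners fell without the 4OHT library of number 1 or the DMSO library of number 2, where fewer of all genes were called lower too. With all 8 libraries scaled together 0 fell, where 0.14% of all genes did. edgeR called 5 lower and DESeq2 6.

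Most writers of m6A did not pass the test, and the shares that did were near or below those of all genes. Of 11, 2 fell, Rbm15b (−0.72, limma adjusted p = 0.00011) and Mettl5 (−0.55, 0.0011), and 1 rose, Virma (0.34, 0.019). Rbm15b and Virma are subunits of the methyltransferase complex, while Mettl5 modifies ribosomal RNA. The catalytic subunit Mettl3 had 234 and 290 against 274 and 300 (0.14, limma adjusted p = 0.413), and its partner Mettl14 had −0.01; both were named after their values were seen. Of 9 other readers, 3 fell and 0 rose (1 higher at an unadjusted p under 0.05). Igf2bp2, a paralog of Igf2bp1, fell most, from 206 and 200 to 96.4 and 75.3 rescaled counts (−1.24, limma adjusted p = 5.8e-07), followed by Prrc2a (−0.50) and Fxr2 (−0.32). Igf2bp3, named after its values were seen, did not pass (−0.13), nor did Igf2bp1, as given above. None of 7 other AlkB genes, relatives of Fto and Alkbh5, passed by limma, edgeR or DESeq2, and 0 had an unadjusted p under 0.05. Those of smallest p, Alkbh6, Alkbh2 and Alkbh8, had 0.68, −0.33 and 0.19. Of 13 decay factors used by YTHDF proteins and Ythdc2, 2 rose and 2 fell, shares near or below those of all genes. Xrn1, the exonuclease that binds Ythdc2, went from 348 and 380 to 594 and 644 rescaled counts (0.76, limma adjusted p = 1.2e-05), while the decapping enzyme gene Dcp2 had −0.57 and the deadenylase subunit gene Cnot3 −0.41. With all 8 libraries scaled together, 0 genes of the writer, other reader and decay lists passed, where 0.0097% of all genes were higher and 0.14% lower. With 1 library left out, Virma was not called without either 4OHT library or the DMSO library of number 1. The numbers of writers and decay factors called also changed in such fits, which have 1 library in a group.

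**Figure D5:**
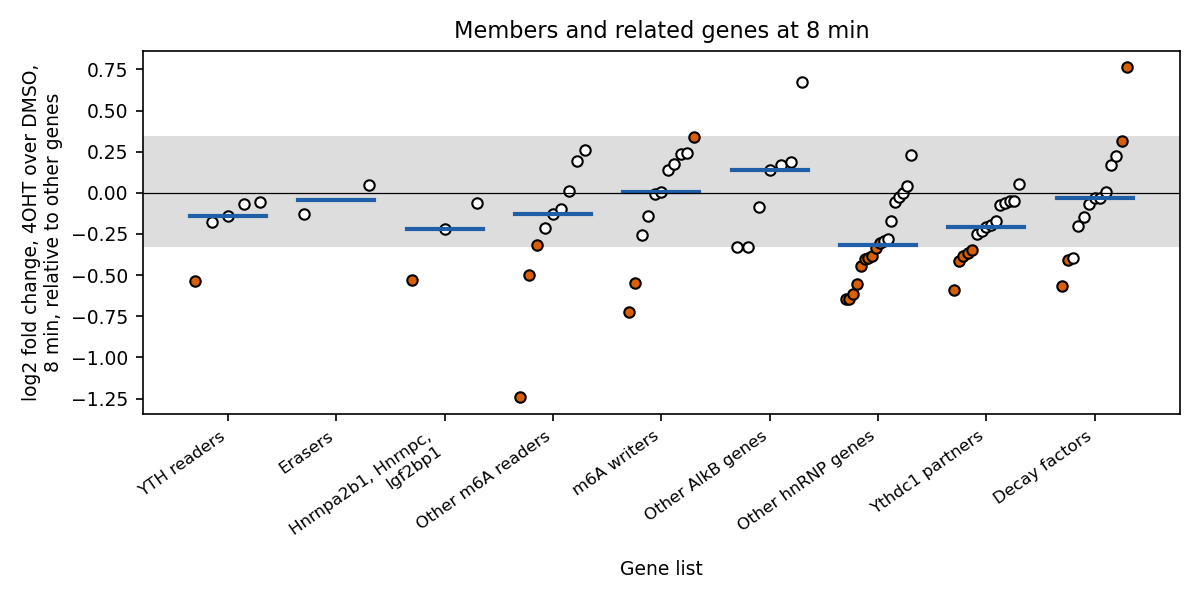
Log2 fold change at 8 min, 4OHT over DMSO relative to other genes, of each gene of the members and the related lists (orange, limma adjusted p under 0.05; blue line, list median; grey band, middle 50% of all genes). The hnRNP genes have 10 orange points, all below 0, and Igf2bp2 is the lowest point at −1.24.

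The genes whose pattern was most like that of Ythdc1 over the 8 libraries, by Pearson correlation of log2 counts scaled over all libraries, were Parpbp (r = 0.998), Ccne2 (0.996), Larp4b (0.996), 6720427I07Rik (0.996) and Atp5f1 (0.996), of 20642 genes. Relative to other genes at 8 min, Parpbp had −0.32 and Ccne2 −0.66. On that scale Ythdc1 had 301 to 523 in the libraries of 0 min and 1029 to 1946 in those of 8 min. The libraries of 8 min also held more reads, and what the correlation rests on was not tested. Among members Hnrnpc stood nearest to Ythdc1 (rank 153, r = 0.983), then Hnrnpa2b1 (rank 380, r = 0.975) and Ythdf2 (rank 732, r = 0.965). Fto (r = −0.68) and Igf2bp1 (r = −0.92) ran the other way. Of the 10 nearest genes of Ythdc1 on chromosome 5, 5 on each side, 7 were in the table and 3 passed the filter, all of the Tmprss11 protease family on the upstream side. Tmprss11e, at 58.2 kb from Ythdc1, fell from 37.1 and 35.8 to 13.0 and 20.7 rescaled counts (−1.10, limma adjusted p = 0.0021), while Tmprss11f and Tmprss11a had −0.52 and −0.51 and did not pass.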

How the data were processed

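4sU-labelled RNA was sequenced in 8 libraries. The authors deposited 1 table of signal values (normalised read counts) per gene and library; the submitters' processing notes name the build mm10 and the tools STAR 2.7, Bowtie2 and bcl2fastq, whose roles are not given in the sources used here. Within a library, all deposited values were whole reads over the same divisor, from 8.095 to 29.49; 99.995% to 100.0% of values came within 0.01 of whole reads. What the divisor stands for and the strand counted are not given in the sources used here. Intervals cover the fit's error only, and reads are not independent molecules.

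Values were tested as log2(value + 1) with limma 3.58.1 in R 4.3.3 (trend, two-sided) over genes of at least 10 in 2 of 8 libraries, with Benjamini-Hochberg adjustment over all genes at 0.05. Group means were fitted to all 8 libraries on the deposited scale; for changes relative to other genes, the 4 libraries of a time were fitted after median-ratio scaling. A fold change on the log2(value + 1) scale understates changes of low genes. edgeR 4.0.16 and DESeq2 1.42.0 were alternatives on the recovered reads, beside other pseudocounts, filters, scalings, a replicate block and leaving out libraries. Scripts were tested on simulated data. Named genes were all members, up to 3 genes of smallest p per list, and the 5 most correlated with Ythdc1. Markers were named from their own lists without that limit, and Mettl3, Mettl14 and Igf2bp3 after their values were seen. Members and lists were chosen with earlier results of these data known. Lengths, coordinates and promoters came from RefSeq GRCm38.p6. Column names gave groups only, since names and titles disagree on the cell line. All columns were used.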

Additional observations from a re-analysis of the deposited data

How the results depend on the processing

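On the deposited scale at 8 min, 6 members were higher; 0 were with DESeq2, edgeR, median-ratio scaling or no filter, 2 with only the 4 libraries, 3 with robust moderation, and 0 to 7 with 1 library left out. Of all genes, 58.8% were called higher in the main fit, 1.34% with DESeq2, and 0.0097% with edgeR or with median-ratio scaling. That share was 17.6% with no filter, 59.6% with only the 4 libraries and 59.0% with robust moderation. It also changed with 1 library left out. With DESeq2, edgeR and median-ratio scaling, few genes of the whole table were called higher, so these counts are not particular to the members. After median-ratio scaling all 10 estimates turned: Ythdc1 −0.61, Ythdc2 −0.13, Ythdf1 −0.26, Ythdf2 −0.15, Ythdf3 −0.22, Fto −0.21, Alkbh5 −0.034, Hnrnpa2b1 −0.61, Hnrnpc −0.30 and Igf2bp1 −0.14. edgeR gave −0.54, −0.058, −0.18, −0.078, −0.14, −0.13, no turn, −0.53, −0.23 and −0.067 in that order, and DESeq2 −0.62, −0.13, −0.26, −0.16, −0.22, −0.21, −0.035, −0.61, −0.31 and −0.14. These tools scale each library to its genes.

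Relative to other genes at 8 min, 2 members were lower, as were 16.7% of all genes. With all 8 libraries scaled together 0 members were (0.14% of all genes), and without the trend 0 (9.97%). With library medians subtracted 1 member was (16.0%), and with no filter 1 (6.94%). The number of members also changed with 1 library left out. Ythdc1 had −0.61 with all 8 scaled together (limma adjusted p = 0.465), −0.53 without the trend (limma adjusted p = 0.088) and −0.68 to −0.39 with 1 library left out; its adjusted p ranged from 7.0e-07 to 0.465. Near 0, with 1 library left out, Alkbh5 ran from −0.011 to 0.10, Ythdc2 from −0.14 to 0.030, Ythdf2 from −0.19 to 0.045 and Ythdf3 from −0.31 to 0.022, and with all 8 scaled together Alkbh5 was −0.034. Lower hnRNP genes numbered 10, but 6 with medians subtracted, 4 with no filter and 2 without the trend; lower partners numbered 5, but 2, 2 and 0. Over all genes, 3835 were higher and 3456 lower; with all 8 scaled together 2 and 29. On the deposited scale 12130 were higher, and 239 to 14346 with 1 library left out.

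At 0 min, with 1 library left out, Ythdc1 ran from −0.28 to 1.38 (deposited) and from −0.16 to 0.64 (relative), negative without 4OHT number 2. Its difference between times, 0.38, turned to −0.86 (median-ratio), −0.84 (edgeR), −0.92 (DESeq2), and ran from −0.45 to 1.22 with 1 library left out (negative without 4OHT 0 min number 1, 4OHT 8 min number 2 or DMSO 8 min number 1). From 0 to 8 min, 8 members were higher with DMSO (47.0% of all genes) and 9 with 4OHT (74.0%). These numbers of members changed in some fits with 1 library left out. Under median-ratio scaling, edgeR and DESeq2 1 was lower with DMSO (Igf2bp1, −1.46, −1.51 and −1.47) and 2 with 4OHT (Fto and Igf2bp1). Fto turned to −0.51, −0.55 and −0.52 with DMSO, not past the threshold, and −0.85, −0.86 and −0.90 with 4OHT, Igf2bp1 to −1.44, −1.42 and −1.45 with 4OHT, and Ythdf1 to −0.026 with 4OHT in DESeq2. Igf2bp1 with DMSO ran from −0.53 to 0.091 with 1 library left out. Causes of the other changes were not tested.

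Whether the library numbers pair samples is not settled: the table's names carry them like line numbers at both times, the titles do not, and correlations of same-number deviations ran from 0.021 to 0.465. With a replicate block, 9 members were higher at 8 min on the deposited scale, where 82.7% of all genes were. In that setting 1 member (Igf2bp1) passed for the difference between times, and the share of all genes called there is not given here. Ythdc1 relative to other genes stayed at −0.53 (limma adjusted p = 2.4e-06), where 19.1% of all genes were lower. Values per kb of exon were not run, as exon lengths were not used here. Having 2 libraries per group limits every comparison.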
